A study of Mus musculus with 3 samples.

Results

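The genes of the proteasome and of its interferon-inducible form, the immunoproteasome, were examined in mouse intestinal epithelium from 3 regions: the large intestine and the lower and upper parts of the small intestine. Members were all genes of the 3 files whose symbol begins with Psm followed by a letter from a to g and a number. This rule found 50 of the 24346 genes listed. They comprise 8 alpha ring genes (Psma), 4 non-catalytic, 3 standard catalytic and 4 inducible or thymic catalytic beta genes (Psmb), 6 ATPases (Psmc) and 11 other subunits (Psmd) of the regulatory cap, 5 activators (Psme), the inhibitor Psmf1 and 7 assembly chaperones (Psmd5, Psmd9, Psmd10 and Psmg1 to Psmg4). The fiftieth, Psmc3ip, matched by name alone: it encodes a partner protein in meiotic recombination and is not a subunit.

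Each region gave 1 RNA sequencing library, so no difference below has a replicate check and no test was possible. The libraries belong to a study of the ATP-degrading enzyme E-NTPD8 and the ATP-gated channel P2X4 in colon inflammation. Cells were released from opened intestines in 5 mM EDTA without a described sort, and no treatment, age or genotype is labelled. How many animals gave RNA to a library is not labelled. A strain entry stands on the upper library only and names a colorectal cancer model, MC38; strain and region cannot be told apart there if it is right. All 8 epithelial markers examined, among them Epcam and Krt8, were above 1 FPKM in every library. FPKM counts fragments per kilobase of a transcript relative to library size, and the unit was inferred from the files. Their summed levels were 7844, 8466 and 6078 FPKM in the large, lower and upper libraries. Individual markers differed between regions, in both directions. Vil1, a microvillus protein gene, was at 278, 913 and 974 FPKM and Krt20, a keratin gene of mature cells, at 361, 968 and 702 FPKM. Both were lowest in the large intestine like the immunoproteasome genes, as was Cldn7. Cdh1, Krt8, Krt18 and Krt19 were instead highest in the large intestine, with Krt18 at 316, 232 and 151 FPKM and Krt19 at 2437, 1819 and 1200 FPKM. Epcam was highest in the lower library. Depth, read from the spacing of low values, was about 16.7, 21.7 and 14.7 reads per FPKM for a transcript of 2 kb. Values in FPKM below are given per gene in the order large, lower and upper. Brackets after a ratio are 95% Clopper-Pearson intervals from the reads these values imply, and cover counting error alone.

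The proteasome is the chamber in which ubiquitin-tagged proteins of the cytosol and nucleus are cut into peptides. Its barrel-shaped core is built of alpha rings around beta rings, and the beta subunits encoded by Psmb5, Psmb6 and Psmb7 carry the cutting sites. Interferon-gamma induces Psmb8, Psmb9 and Psmb10, which take the places of Psmb5, Psmb6 and Psmb7 in newly built cores, and the cap-like activator made of Psme1 and Psme2. The resulting immunoproteasome is abundant in lymphoid cells and alters which peptides reach MHC class I molecules.

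Of the 50 members, 46 were at 1 FPKM or more in all 3 libraries. Psmc3ip was at 0.285, 2.75 and 2.63 FPKM. The other 3 stayed under 1 FPKM throughout. Psma8, an alpha subunit of the testis, was listed at 0 in all libraries, which can be a failed estimate. Psmb11, the catalytic subunit of the thymic proteasome, was at 0.162, 0.125 and 0.124 FPKM, or about 1 read in each library by its shortest transcript. Psme2b was listed at 0 in the large intestine and was at 0.588 and 0.639 FPKM in the lower and upper small intestine. Its reads may belong to its relative Psme2, so its values are uncertain. In all, members made up 0.545%, 0.717% and 0.614% of the summed FPKM.

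**Figure D1:**
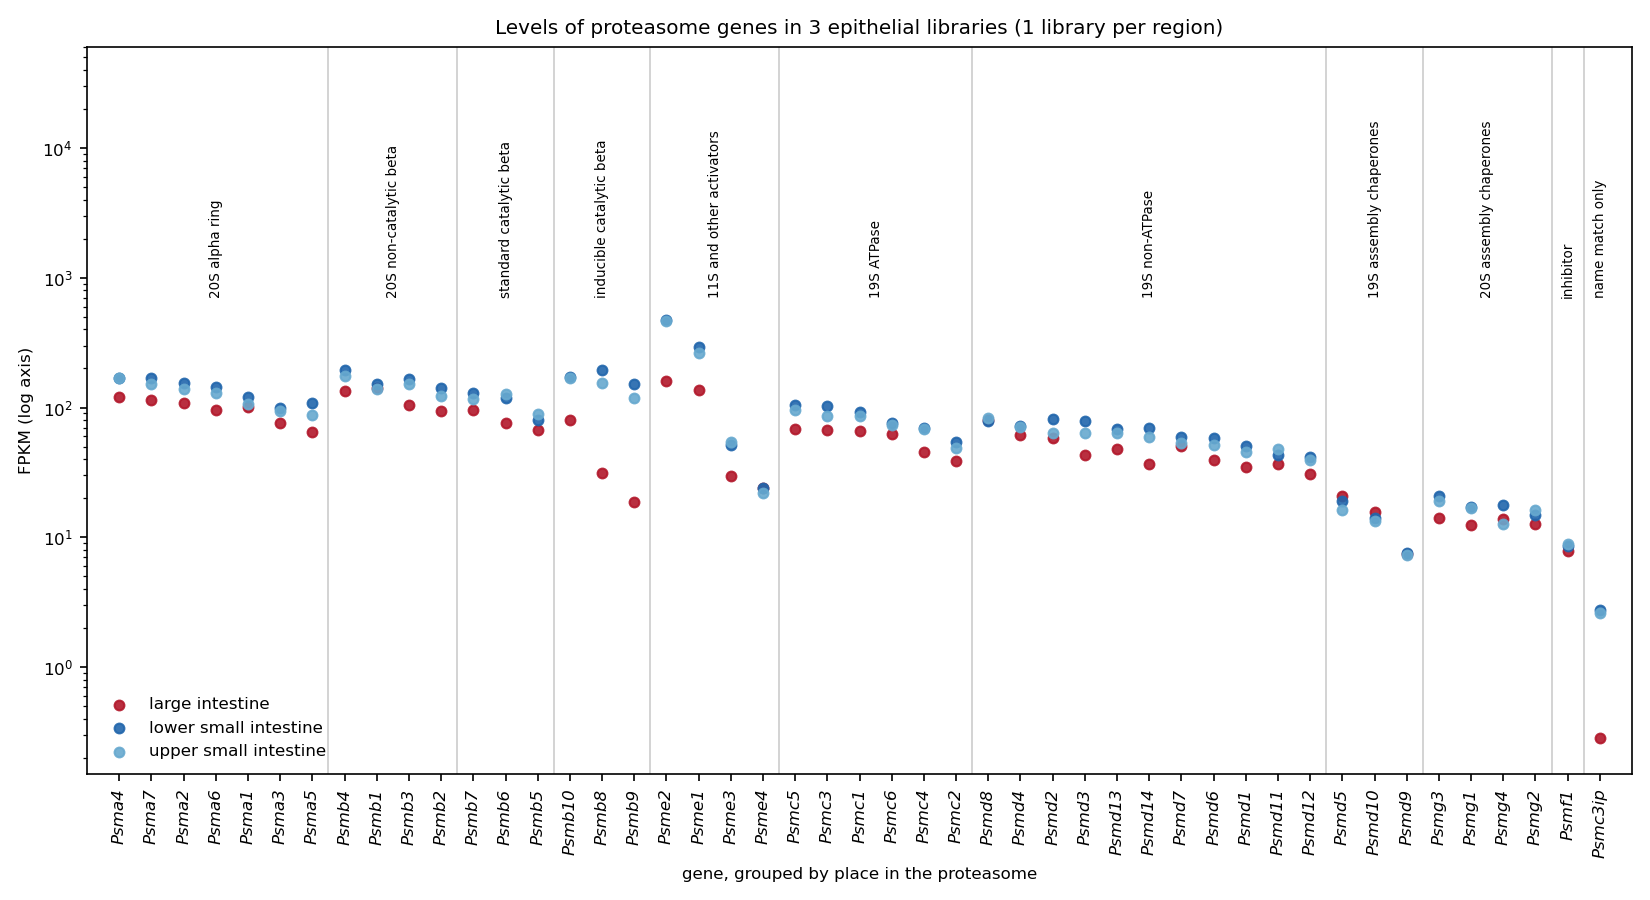
FPKM on a log axis of the 47 members that reached 1 FPKM in at least 1 library, grouped by place in the proteasome and sorted by mean level, with 1 point per library. Most subunits of a group lay close together with the large intestine lowest. Psmb8 and Psmb9 of the large intestine, at 31.0 and 18.6 FPKM, lay far below their own levels in the small intestine.

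On the log2(FPKM + 1) scale, the inducible catalytic subunits Psmb9 and Psmb8 were the members that differed most between large and small intestine. Psmb9 was at 18.6, 152 and 118 FPKM. Its lower small intestinal level was 8.15 (6.37 to 10.7) times that of the large intestine, and its upper level 6.34 (4.90 to 8.39) times. Psmb8 was at 31.0, 194 and 155 FPKM, which gave ratios of 6.24 (5.03 to 7.83) and 5.00 (3.99 to 6.34). Psmb10 was at 79.8, 171 and 168 FPKM, with the smaller ratios of 2.14 (1.98 to 2.32) and 2.11 (1.94 to 2.29). All 3 were thus lowest in the large intestine by more than counting error, Psmb8 and Psmb9 by a wider margin than Psmb10. In the large intestine Psmb8 and Psmb9 had ranks of 34 and 39 among the 50 members by level. Their ranks were 3 and 11 in the lower small intestinal library and 6 and 14 in the upper one.

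Both genes of the interferon-inducible activator had the same order of regions. Psme1 was at 136, 294 and 263 FPKM, with small to large intestinal ratios of 2.17 (1.98 to 2.38) for the lower and 1.94 (1.76 to 2.14) for the upper library. Psme2 was at 161, 476 and 465 FPKM, with ratios of 2.95 (2.73 to 3.20) and 2.89 (2.65 to 3.14). Psme2 was the highest of all members in each of the 3 libraries. The level of Psme2 was 1.19 times that of Psme1 in the large intestine and 1.62 and 1.77 times in the lower and upper small intestine. Their products assemble together in a ring. Psme3, which encodes the nuclear activator that is not induced this way, was at 29.7, 51.5 and 54.0 FPKM, with ratios of 1.73 (1.44 to 2.11) and 1.82 (1.49 to 2.23). Psme4, encoding the large activator PA200, was at 23.9, 24.0 and 21.8 FPKM, and no difference between libraries exceeded counting error. Its intervals used a transcript of 0.576 kb, the shortest annotated, and can be too wide.

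The immunoproteasome genes lie in 2 neighbourhoods and 1 separate place. Psmb8 (chromosome 17, 34197721 to 34201454, plus strand, mm10) and Psmb9 (34181987 to 34187764, minus strand) lie in the MHC region on either side of Tap1, which encodes a subunit of the peptide pump of antigen presentation. By the GENCODE M21 annotation, Psmb9 and Tap1 are on opposite strands and share 212 bases. Whether counting used the strand is not given in the sources used here, so reads from those bases may fall to either gene. Psme1 (chromosome 14, 55578123 to 55581529, plus strand) and Psme2 (55587441 to 55591113, minus strand) lie 5911 bases apart. Psmb10 lies on chromosome 8 (105935735 to 105938444, minus strand). The standard genes are spread over chromosome 14 (Psmb5, 54614119 to 54618022), chromosome 11 (Psmb6, 70525367 to 70527858) and chromosome 2 (Psmb7, 38588036 to 38644087). All 8 are annotated as protein coding.

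The windows around the annotated starts of both neighbouring pairs, from 250 bases before to 50 after, are shown because these 4 genes were lower together in the large intestine. The sequences are from RefSeq (GRCm38.p6), in the direction of transcription. Capitals mark matches on either strand to 5 short motifs: the interferon-stimulated response element core (GAAA, any 2 bases, GAAA), the gamma-activated site TTCNNNGAA, the antioxidant response element core TGACNNNGC, the CCAAT box and the GC box GGGCGG. The matches do not overlap each other within these windows. The RefSeq starts lie inside the GENCODE spans given above.

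Psmb8, chr17:34197945-34198244, plus strand: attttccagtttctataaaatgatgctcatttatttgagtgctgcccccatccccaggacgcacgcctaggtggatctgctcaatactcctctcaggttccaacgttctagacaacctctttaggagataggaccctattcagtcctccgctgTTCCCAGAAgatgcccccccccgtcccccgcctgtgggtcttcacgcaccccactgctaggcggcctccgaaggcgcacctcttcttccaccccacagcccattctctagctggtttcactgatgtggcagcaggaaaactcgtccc

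Psmb9, chr17:34187281-34187580, minus strand: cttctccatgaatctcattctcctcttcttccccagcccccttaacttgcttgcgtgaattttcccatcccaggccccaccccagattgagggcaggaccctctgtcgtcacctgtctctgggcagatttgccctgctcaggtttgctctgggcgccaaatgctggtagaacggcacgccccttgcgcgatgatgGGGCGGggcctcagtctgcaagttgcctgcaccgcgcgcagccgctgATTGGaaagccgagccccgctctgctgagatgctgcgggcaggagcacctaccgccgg

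Psme1, chr14:55578244-55578543, plus strand: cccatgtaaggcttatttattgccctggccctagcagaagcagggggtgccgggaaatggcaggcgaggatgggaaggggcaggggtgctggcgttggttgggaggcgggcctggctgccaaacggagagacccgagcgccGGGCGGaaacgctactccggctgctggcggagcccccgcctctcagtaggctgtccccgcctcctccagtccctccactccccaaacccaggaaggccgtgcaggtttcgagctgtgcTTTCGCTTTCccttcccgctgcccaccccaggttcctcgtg

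Psme2, chr14:55591052-55591351, minus strand: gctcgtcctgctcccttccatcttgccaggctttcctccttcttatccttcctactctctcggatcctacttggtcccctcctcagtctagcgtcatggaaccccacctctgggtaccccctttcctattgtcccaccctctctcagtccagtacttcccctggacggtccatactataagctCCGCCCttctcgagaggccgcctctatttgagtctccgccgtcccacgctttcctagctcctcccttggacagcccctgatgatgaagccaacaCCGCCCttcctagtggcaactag

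With the start base counted as 0, Psmb8 held a gamma-activated site at -97 to -89 and Psme1 an interferon-stimulated response element at 9 to 18. Psme1 also held a GC box at -109 to -104. Psmb9 held a GC box at -55 to -50 and a CCAAT box at -8 to -4, and Psme2 held GC boxes at -67 to -62 and 27 to 32. A window was found for 42 of the 50 members, and Psmb7 was among those without one. The interferon-stimulated response element was present in 5 of them (11.9%, Psmb3, Psmd4, Psmd9, Psme1 and Psmg4), against 3.49% of 27025 windows of all genes. The gamma-activated site was present in 3 (7.14%, Psmb8, Psmd2 and Psmg1), against 8.35% of all windows. The antioxidant element, to which the stress-responsive factors Nfe2l1 and Nfe2l2 bind, was present in 6 (14.3%), Psmb5 and Psmb6 among them, against 12.5%. CCAAT boxes were present in 15 (35.7%, against 37.9%) and GC boxes in 23 (54.8%, against 36.0%). Psmb10 held none of the 5 motifs in its window. A match is a description of these letters and not a bound site.

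The standard catalytic subunits differed less between regions. Psmb5 was at 67.2, 80.8 and 89.6 FPKM, Psmb6 at 75.5, 118 and 127 FPKM and Psmb7 at 95.3, 130.4 and 116 FPKM. The lower to large ratios were 1.20 (1.05 to 1.38) for Psmb5, 1.56 (1.40 to 1.74) for Psmb6 and 1.37 (1.26 to 1.49) for Psmb7. All 3 were lowest in the large intestine as deposited. Their median difference from the lower library was -0.14 with equal FPKM sums and 0.10 with equal median levels of core subunits, so its sign depends on the scaling. On the log2(FPKM + 1) scale, the median difference of the 5 immunoproteasome genes (Psmb8, Psmb9, Psmb10, Psme1 and Psme2) between large and lower libraries was -1.56, against -0.45 for the 3 standard genes. Between the large and upper libraries these medians were -1.52 and -0.41. In both comparisons each of the 5 immunoproteasome genes lay below the lowest of the 3 standard genes. The medians were thus separated by -1.11 in either comparison, and a common scale factor between libraries cancels from this separation apart from the added 1 FPKM. The large intestinal library is shared by these comparisons.

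A ratio of the inducible to the standard subunit within a library does not depend on how libraries were scaled. Psmb8 was 0.462 (0.363 to 0.582) times the level of Psmb5 in the large intestine, 2.40 (2.15 to 2.68) times in the lower and 1.73 (1.51 to 1.99) times in the upper small intestine. Psmb9 was 0.246 (0.187 to 0.317), 1.29 (1.17 to 1.42) and 0.932 (0.820 to 1.06) times the level of Psmb6. Psmb10 was 0.837 (0.762 to 0.919), 1.31 (1.23 to 1.39) and 1.44 (1.33 to 1.56) times the level of Psmb7. In the large intestine all 3 standard genes exceeded their inducible counterparts beyond counting error. In the small intestine the inducible gene exceeded its counterpart in every pair except Psmb9 and Psmb6 of the upper library, where the interval included 1. From large to lower small intestine the ratio grew 5.19-fold for the Psmb8 pair, 5.22-fold for the Psmb9 pair and 1.56-fold for the Psmb10 pair. Summed over the pairs, inducible genes made up 35.2% of catalytic transcripts by FPKM of the large intestinal library, 61.1% of the lower and 57.0% of the upper one.

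**Figure D2:**
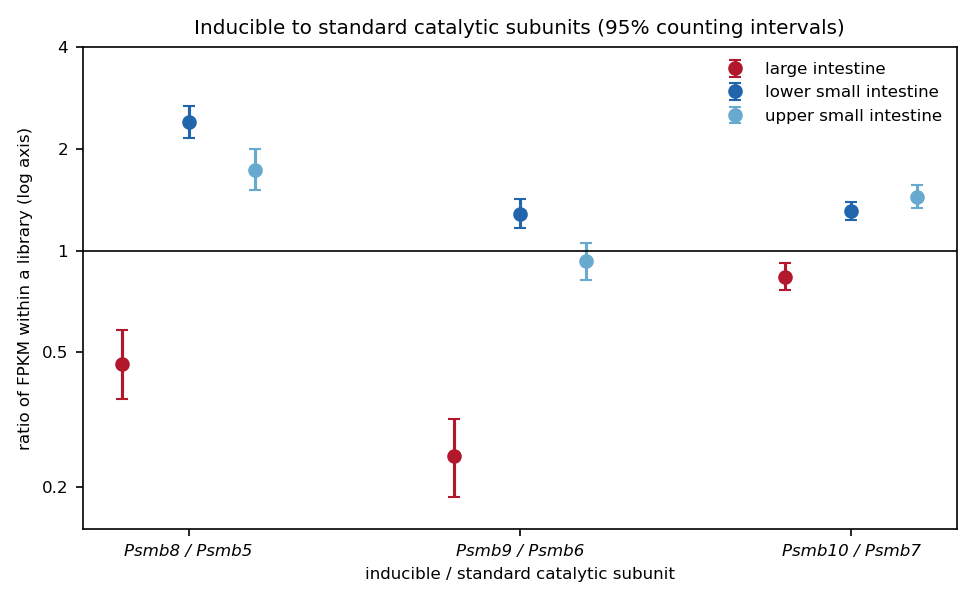
Ratio of FPKM of each inducible catalytic subunit to the standard subunit it replaces, within each library, on a log axis, with 95% counting intervals as bars and a line at equal levels. The large intestinal points lie below 1 in all 3 pairs, at 0.462, 0.246 and 0.837, and the separation of regions is smaller for the Psmb10 pair.

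Markers of immune cells differed between the same libraries. All 14 T cell markers were at least 2-fold lower, in FPKM + 1, in the large intestinal than in the lower library, where 10.5% of all measured genes were. Against the upper library 12 were measured and 10 of them were, beside 11.7% of all measured genes. In the large intestine 6 of the 14 reached 1 FPKM, so several values lay near the floor. Their summed levels were 23.8, 625 and 623 FPKM, of which the granzyme gene Gzma held 3.09, 334 and 357 FPKM. The T cell receptor component gene Cd3e was at 0.977, 13.8 and 14.8 FPKM. None of the 14 was listed at 0 in any library. Of 8 B and plasma cell markers, 7 were listed at 0 in the large intestine, and the sums were 0.097, 31.1 and 30.3 FPKM. The antibody joining chain gene Jchain held most of these, at 0, 22.5 and 28.1 FPKM, and without it the sums were 0.097, 8.70 and 2.24 FPKM. Ms4a1, Pax5 and Blk were under 1 FPKM in every library. In the lower library 5 of the 8 reached 1 FPKM, and in the upper library only 1, Jchain, did. The 11 myeloid markers summed to 19.1, 37.3 and 23.4 FPKM, with S100a8 and S100a9 listed at 0 in the large intestine. Cd14 went the other way, at 15.7, 6.07 and 5.61 FPKM, and without it the sums were 3.46, 31.2 and 17.8 FPKM. The 10 stromal and endothelial markers summed to 7.49, 16.9 and 10.9 FPKM, with the endothelial gene Cdh5 at 0 in the large and lower libraries. The part of these cells in the immunoproteasome values was not tested. In bulk libraries fewer cells of a type and less RNA per cell cannot be told apart.

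The structural subunits of the core were present at similar levels within a library and were slightly lower in the large intestine as deposited, a direction that equal core medians remove by construction. The 7 measured alpha ring genes ranged from 65.1 (Psma5) to 120 FPKM (Psma4) in the large intestine. Levels ranged from 99.8 (Psma3) to 168 FPKM (Psma4) in the lower and from 87.4 (Psma5) to 169 FPKM (Psma4) in the upper small intestine. Their median level was 101, 144 and 129 FPKM. All 7 were lower in the large than in either small intestinal library, with median differences of -0.51 and -0.40 on the log2(FPKM + 1) scale. The 4 non-catalytic beta genes had medians of 119, 160 and 145 FPKM. Among them Psmb4, the highest by mean, was at 133, 194 and 174 FPKM. Psmb2, the lowest by mean, was at 94.2, 142 and 123 FPKM. Psmb1 stood out by its small difference, at 141, 153 and 138 FPKM. Its lower to large ratio was 1.09 (1.02 to 1.16), and its upper to large ratio, 0.984 (0.917 to 1.06), did not differ from 1 beyond counting error.

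The regulatory cap recognises, unfolds and feeds tagged proteins into the core. Its 6 ATPase genes had medians of 63.9, 83.6 and 79.3 FPKM, from Psmc2 at 38.4, 54.2 and 48.5 FPKM to Psmc5 at 68.6, 104 and 96.4 FPKM. The median alpha ring level was 1.58, 1.72 and 1.63 times the median ATPase level, so this proportion varied little among libraries. The 11 other cap subunits had medians of 42.9, 68.5 and 59.0 FPKM. Psmd12, the lowest by mean, was at 30.8, 41.5 and 39.3 FPKM. Psmd14, encoding the deubiquitinase that removes the ubiquitin chain, was at 36.6, 70.1 and 59.0 FPKM. Its ratios to the large intestine, 1.92 (1.72 to 2.14) and 1.61 (1.44 to 1.82), were the highest of these 11 in both comparisons. Psmd3, a scaffold subunit, followed in the comparison with the lower library at 42.9, 78.2 and 63.6 FPKM. Psmd8, the highest of these 11 by mean at 80.8, 78.7 and 82.3 FPKM, was nearly level across libraries, and neither ratio differed from 1 beyond counting error.

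Assembly chaperones and the inhibitor were much less abundant than subunits. Of the cap chaperone genes, Psmd5 was at 20.7, 19.02 and 16.4 FPKM. Psmd9 was the lowest by mean at 7.41, 7.58 and 7.32 FPKM. Psmd10, which encodes gankyrin, was at 15.7, 14.05 and 13.2 FPKM. They lay slightly above 0 in median difference, at 0.12 and 0.23 against the lower and upper libraries, unlike the subunits they help to assemble. No interval of their ratios excluded 1. The core chaperones had medians of 13.2, 17.4 and 16.6 FPKM. Psmg3, the highest, was at 14.0, 20.6 and 18.9 FPKM and Psmg2, the lowest by mean, at 12.6, 14.8 and 16.4 FPKM. Psmf1, which encodes the inhibitor PI31, was at 7.87, 8.60 and 8.95 FPKM, and no difference between libraries exceeded counting error.

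Counted over all members, 47 reached 1 FPKM in 1 of the 2 libraries of each comparison and could be compared. A member was called higher or lower by size, without a test, at a difference of at least 1 in log2(FPKM + 1), which is 2-fold. Against the lower small intestine 6 of 47 were lower in the large intestine and none higher. They were the 5 immunoproteasome genes and Psmc3ip. Of all 12376 genes measured, 10.5% were lower and 9.75% higher, so the count of 6 members is near the background. Compared with the upper small intestine 5 were lower and none higher, where 11.7% of 12350 genes were lower and 11.2% higher. These were Psmb8, Psmb9, Psmb10, Psme2 and Psmc3ip, while Psme1 was just inside the threshold at -0.95. When libraries were rescaled to the same FPKM sum, 4 members passed in each comparison, where 8.01% of all genes were lower in either. Psme1 and Psmb10 then no longer passed against the lower library, nor Psmb10 against the upper, with Psmb10 at -0.78 against the lower. Psmc3ip rested on about 3 reads in the large intestine, counted by its shortest transcript, and its lower to large ratio was 9.65 (3.18 to 50.6).

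With a smaller threshold of 1.5-fold, 16 of 47 members had a lower large intestinal level compared with the lower library, against 18.8% of all genes, and 9 compared with the upper, against 19.8%. None was higher, against 18.1% and 19.6%. Differences of any size were one-sided: 44 of 47 members had a lower level in the large intestine against the lower library, where 50.0% of all measured genes were, and 41 of 47 against the upper, where 50.0% were. Intervals of the FPKM ratio lay wholly below 1 for 38 and 35 members and wholly above 1 for none. Over all measured genes with an annotated length, they lay below 1 for 28.3% and 27.9% and above 1 for 26.5% and 26.0%. That share covers genes of every level, and intervals narrow with level. The median difference of members was -0.50 against the lower and -0.38 against the upper library, where all genes had medians of 0.00 in both. This direction depends on the scaling. With equal FPKM sums the all-gene medians moved to 0.28 and 0.37 and the members' medians to -0.19 and 0.03, so the second changed sign. Relative to all genes, members lay 0.47 lower and 0.35 lower in that setting, with 43 and 40 of 47 below the all-gene median.

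**Figure D3:**
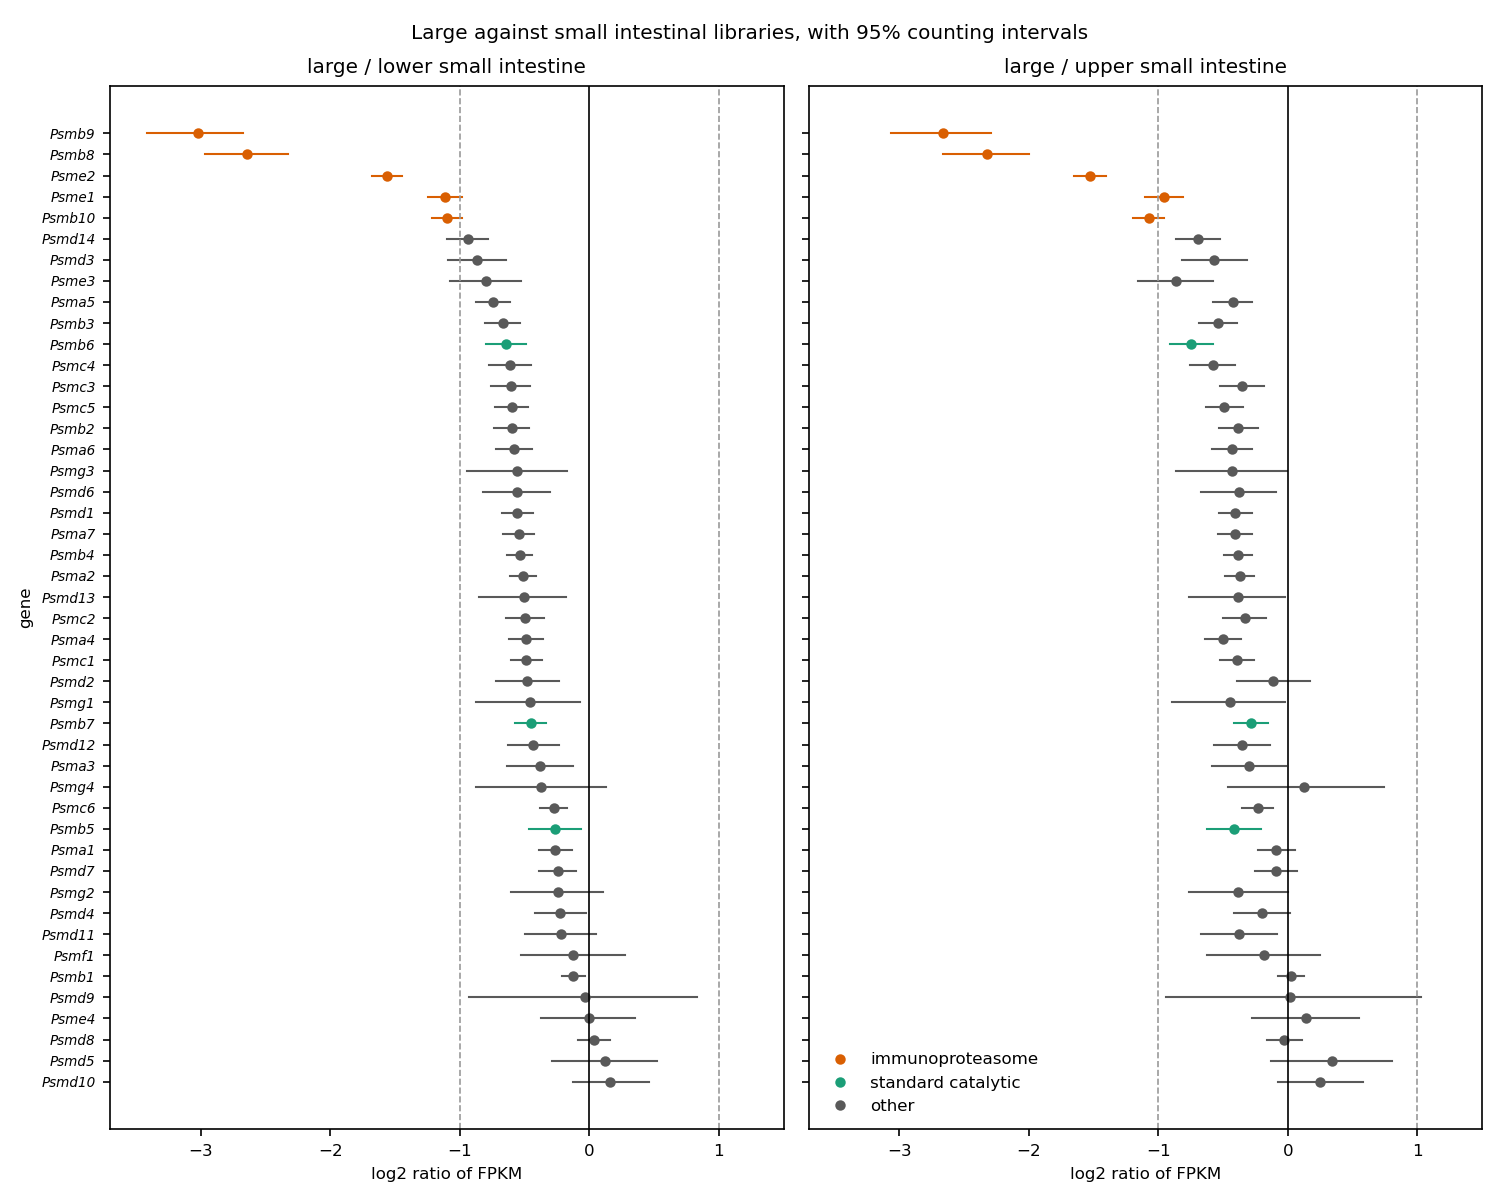
Log2 ratio of FPKM of the large to the lower (left) and upper (right) small intestinal library for the 46 members at 1 FPKM or more in all libraries, with 95% counting intervals as bars and dashed lines at 2-fold. The 5 immunoproteasome genes are the lowest points on the left, and most other members sit between -1 and 0.

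**Figure D4:**
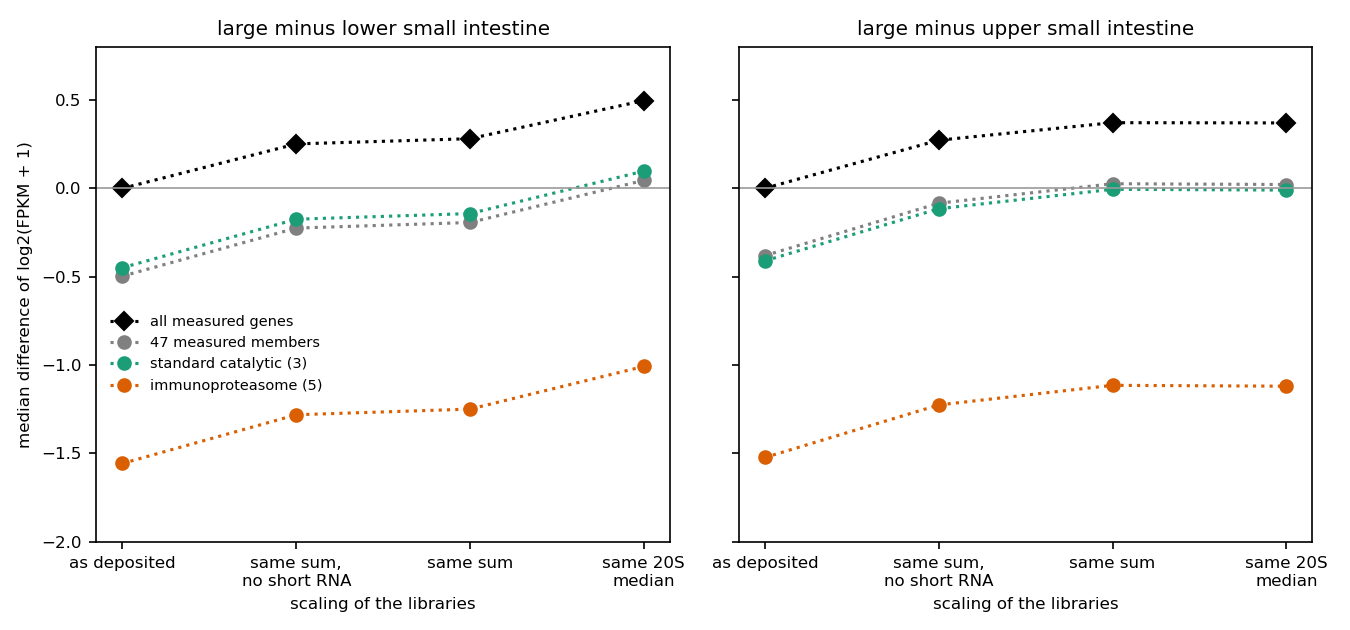
Median difference of log2(FPKM + 1) of the large from the lower (left) and upper (right) small intestinal library over all measured genes, the 47 measured members, the 3 standard catalytic genes and the 5 immunoproteasome genes, under 4 ways of scaling the libraries. The lines shift together. The separation of immunoproteasome from standard genes stays at -1.11 in each comparison and scaling, since a common scale factor cancels from it.

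The small intestinal libraries resembled each other. No member differed by 2-fold or by 1.5-fold between them, where 2.92% and 7.48% of 11941 genes were lower in the upper library, and 3.92% and 8.53% higher. Members had a median difference, upper minus lower, of -0.13, and all genes of -0.03. Of the 47, 39 were lower in the upper library, where 53.9% of all genes were. Psmb9 and Psmb8 were higher in the lower than in the upper library by 1.28 (1.13 to 1.46) and 1.25 (1.10 to 1.41) times, whereas Psmb10 and Psme2 had ratios of 1.02 (0.955 to 1.08) and 1.02 (0.966 to 1.09). The intervals of the Psmb8 to Psmb5 ratio did not overlap between these libraries, nor did those of the Psmb9 to Psmb6 ratio. Those of the Psmb10 to Psmb7 ratio did overlap. Immune markers also differed between these libraries. Of 5 measured B and plasma cell markers, 3 were at least 2-fold lower in the upper library, with a median of -1.06, and the myeloid sum was lower there. T cell markers went both ways, with a median of -0.04 over 14 and 1 at least 2-fold lower in the upper library. Their sums were nearly equal with Gzma, and 291 and 266 FPKM without it. Gzmb was at 141 and 105 FPKM, Cd4 at 2.24 and 0.478 FPKM and Ifng at 2.44 and 1.005 FPKM in the lower and upper library. Higher in the upper library were Cd3g at 29.4 and 37.4 FPKM, Cd8a at 15.9 and 17.4 FPKM and Cd7 at 45.9 and 53.8 FPKM. The part of immune cells in the Psmb8 and Psmb9 values was not tested. Across the 46 members at 1 FPKM or more everywhere, levels in the lower and upper libraries had a Pearson correlation of 0.99 on the log2(FPKM + 1) scale. The correlation of large with lower was 0.90, and 0.98 over 41 members without the immunoproteasome genes. These values describe genes, which share their libraries and their lengths and are not replicates.

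Genes that control or use the immunoproteasome were examined as lists that the rule did not choose. These lists were also chosen with earlier results of these data known. Of 12 genes of the interferon-gamma axis, 6 had a level at least 2-fold lower in the large intestine against the lower library and none a higher one, with a median of -0.999. Of all genes 10.5% were lower and 9.75% higher. Against the upper library 4 were lower, with a median of -0.79, where 11.7% of all genes were. Irf1, a factor that activates immunoproteasome genes, was at 80.6, 209 and 148 FPKM, and passed the threshold against the lower library only. Nlrc5, the activator of MHC class I genes, was at 0.728, 9.07 and 5.75 FPKM. Socs1, a feedback inhibitor of this signal, was at 1.45, 11.5 and 6.08 FPKM, and Irf8 at 28.8, 97.2 and 53.0 FPKM. The signal gene itself, Ifng, was at 0.218, 2.44 and 1.005 FPKM. Of the receptor genes, Ifngr1 was at 112, 78.5 and 65.3 FPKM and Ifngr2 at 71.7, 61.9 and 68.9 FPKM. Jak2, a kinase bound to the receptor, was at 21.4, 33.8 and 45.6 FPKM and passed the threshold against the upper library only.

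Of 9 peptide loading genes, 4 were 2-fold lower in the large intestine against the lower library and 3 against the upper, with medians of -0.98 and -0.72 and none higher, beside the same shares of 10.5% and 11.7% of all genes. Tap1, the neighbour of Psmb8 and Psmb9, was at 11.3, 79.7 and 51.2 FPKM, and Tap2, which encodes its partner in the peptide pump, at 13.3, 32.7 and 33.9 FPKM. B2m, the light chain of MHC class I, was at 516, 1898 and 1960.1 FPKM. Tapbpl, a peptide editor, was at 20.8, 41.997 and 24.7 FPKM. Calr, a chaperone of the loading complex, was at 267, 569 and 471 FPKM and passed the threshold against the lower library only.

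None of 16 genes of partner proteins passed the 2-fold rule in either comparison with the large intestine, where 10.5% and 11.7% of all genes were lower. The medians were -0.35 and -0.28. At 1.5-fold, 3 were lower against the lower library, where 18.8% of all genes were. Against the upper library 2 were lower and 1 higher, beside 19.8% and 19.6% of all genes. Pomp, which encodes the maturation factor of newly built cores, was at 96.6, 184 and 162 FPKM, the lowest of the list in difference from the lower library at -0.92. Uchl5, a deubiquitinase of the cap, was at 10.7, 19.9 and 21.2 FPKM, with differences of -0.84 and -0.93 just inside the 2-fold rule. Rad23b, a shuttle factor that carries tagged proteins to the cap, was at 37.4, 59.9 and 50.6 FPKM. Txnl1, a cap-bound thioredoxin, was at 24.2, 35.3 and 35.2 FPKM. Shfm1, encoding a small cap subunit, was level at 283, 285 and 282 FPKM. Ubqln2, another shuttle factor, had its highest level in the large intestine, with 9.79, 7.57 and 5.35 FPKM.

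Of 8 regulators of proteasome genes, none passed the 2-fold rule in any comparison. Of all genes, 10.5% were lower and 9.75% higher in the large intestine against the lower library, and 11.7% and 11.2% against the upper. Between the small intestinal libraries 2.92% were lower and 3.92% higher in the upper one. With so few genes, a count of 0 is near these shares. The regulators' medians were -0.03 against the lower and -0.33 against the upper library. Nfe2l1, the factor that raises proteasome subunits when proteasomes are impaired, had 48.6, 32.4 and 25.01 FPKM. Ngly1, an enzyme that processes that factor, was at 25.9, 14.9 and 14.8 FPKM. Ddi2, the protease that cleaves it, was at 20.2, 18.2 and 31.1 FPKM. Nfe2l2, a related stress factor, was at 126, 75.2 and 151 FPKM. Syvn1, a ubiquitin ligase of the endoplasmic reticulum, was at 15.3, 29.0 and 23.2 FPKM. Sel1l, its cofactor, was at 19.3, 24.1 and 32.1 FPKM. In the deposited values Nfe2l1 and Ngly1 had their highest level in the large intestine.

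**Figure D5:**
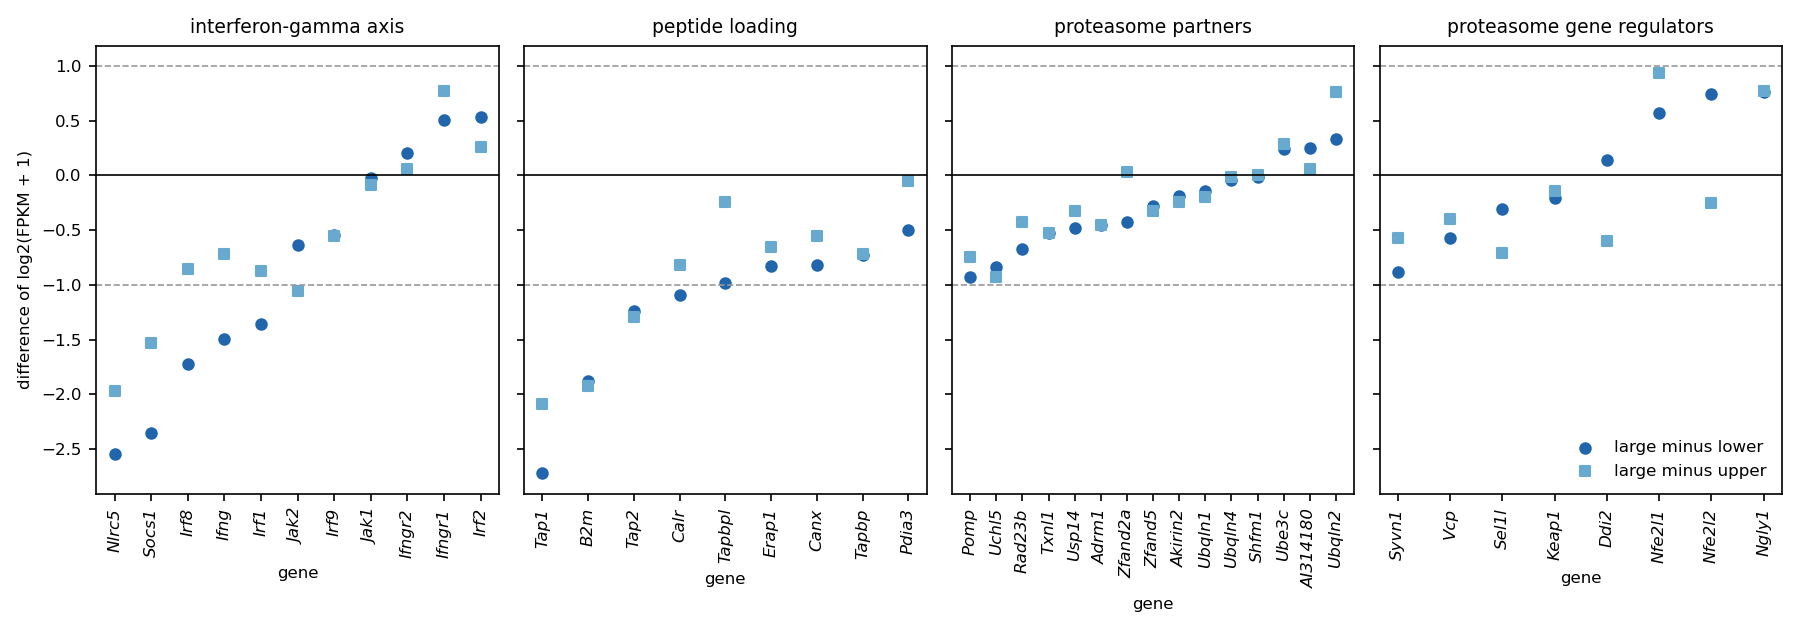
Difference of log2(FPKM + 1) of the large from the lower (circles) and upper (squares) small intestinal library for genes of 4 lists, with dashed lines at 2-fold. Socs1, Nlrc5, Tap1, Tap2 and B2m lie below the lower dashed line in both comparisons, and no gene of the partner and regulator lists passes either line. Of all measured genes, 10.5% and 11.7% pass the lower line and 9.75% and 11.2% the upper line.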

How the data were processed

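RNA of 3 libraries was prepared with a stranded TruSeq mRNA kit, per the labels' protocols. The files give a single deposited value for each gene, taken as FPKM; headers state no unit, so this was inferred from Cufflinks 2.2.1 in the submitters' processing notes. The other entries there are mm10, SAMtools 0.1.19, Bowtie2 2.2.3 and TopHat2 2.0.13, with no roles given. Annotation, filters and strand setting: not given in the sources used here. Median ratios to the geometric mean were 1.00, 1.01 and 0.999 while FPKM sums were 521651, 646262 and 693218, so the files share a common scale through a step that is not stated.

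With Python 3.11.15, pandas 2.3.3, numpy 2.4.6 and scipy 1.17.1, differences were taken as log2(FPKM + 1), which understates those of low genes. Genes needed 1 FPKM or more in either library compared. The FPKM of 1 read was fitted on low values of single-transcript genes over 1500 nt, of which 71.6%, 74.2% and 73.7% came out whole within 0.15 read (of 395, 395 and 399; a spacing set beforehand would give 30%). Recovery was too incomplete for a count test. Implied reads used the shortest protein-coding transcript, so for genes with longer transcripts they can be too low and the intervals too wide. Duplicate reads cannot be told from independent molecules. All 50 members were found in GENCODE M21 (GRCm38). Exons of 15 overlap another gene, Psmb5, Psmb7, Psmb8, Psmb9 and Psme1 among them. For 11 the overlap is on the opposite strand only, and their reads may be shared where strand was ignored. For 4, Psmb5 among them, an overlap is on the same strand, and reads may be shared whether or not strand was used. Scripts were tested on simulated data.

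The members and lists were chosen with earlier results of these data known. Named by rule were the immunoproteasome, standard catalytic and activator genes, members past 2-fold, the highest and lowest of each group by mean, members under 1 FPKM throughout and, from other lists, those past 2-fold and the 4 or fewer of largest difference. Psma3, Psmb1, Psmd3, Psmd10, Psmd14, Shfm1, Ifngr1 and Ifngr2 were singled out after their values were seen. Values of a few genes of the other lists are not reported here. Alternatives were another pseudocount, filters, scalings and threshold.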

Additional observations from a re-analysis of the deposited data

How the results depend on the processing

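The separation of immunoproteasome from standard catalytic genes kept its direction and its size within counting error under each other pseudocount, filter and scaling tried, as did the 9 ratios within a library with 1 FPKM added to both genes. These settings could hardly have changed the separation. A common scale factor cancels from it apart from the pseudocount, and none of its genes was under 18.6 FPKM, which is above each filter. The spreads of level within a group were the same by construction without members under 5 FPKM, because no gene of these groups lay between 1 and 5 FPKM. The median difference of members from the large intestine depended on the scaling. Against the lower library it was -0.50 as deposited, -0.19 with equal FPKM sums, -0.225 with equal sums without short RNA genes and 0.045 with equal 20S medians. Against the upper library it was -0.38 as deposited, 0.026 with equal sums, -0.084 with equal sums without short RNA genes and 0.022 with equal 20S medians. Between upper and lower libraries it was -0.13 as deposited, -0.23 with equal sums and 0.014 with equal 20S medians. Relative to all genes it was negative in each of these settings. With a 1.5-fold rule, 16 and 9 members were lower in the large intestine in place of 6 and 5. Of all genes past 2-fold, 48.2% were higher in the large intestine than in the lower library as deposited and 64.0% with equal sums, and 49.0% and 69.0% against the upper, while no member was called higher in either setting. No paired analysis was possible because each region had 1 library, and no replicate could be left out for the same reason. Depth limits the low members most. Counted by the shortest transcript, Psmd9 rested on about 21, 28 and 18 reads and Psmc3ip on 3 in the large intestine. Longer transcripts would give more reads.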
